A study of Mus musculus with 6 samples.

Results

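The aquaporin genes measured here were Aqp1, Aqp2, Aqp3, Aqp4, Aqp5, Aqp7, Aqp8, Aqp9 and Aqp11. They were read by 14 probes of 9 genes, of 41174 probes and 28146 gene names on the array, and the members were all probes that carry one of these names in the scanner files. The genes were chosen by name with the log2 ratios of these same arrays, knockout against wild type, already known, so their values in that comparison are a description and not a test. A probe entered the tests where its sample signal lay well above background on the 3 arrays of one group, or of both. This held for 11 of the 14 probes and 8 of the 9 genes, against 30479 probes and 20831 genes in all. Both Aqp7 probes and 1 of the 3 Aqp4 probes did not meet it, and their values are given without a test.

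RNA came from the esophagus of adult C57BL/6J mice, and was measured on 6 two-colour Agilent arrays. 3 arrays were labelled wild type (WT). The other 3 were labelled Pax9 knockout, from mice carrying K5Cre and Pax9 loxP/loxP, in which the keratin 5 promoter drives Cre recombinase in the basal cells of stratified epithelia. On every array Cy5 marked the esophagus RNA and Cy3 a universal mouse reference RNA from 11 cultured cell lines, with no dye swap. The labels leave unstated whether the wild type mice carried Cre or a floxed allele. The source was labelled esophageal epithelium, but the extraction was described for esophageal tissue.

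Aquaporins are channel proteins that let water cross cell membranes along an osmotic gradient. The classical members (here Aqp1, Aqp2, Aqp4, Aqp5 and Aqp8) conduct mainly water, and the aquaglyceroporins (Aqp3, Aqp7 and Aqp9) also pass glycerol. Aqp11 is a divergent member found on membranes inside the cell. Aqp3 is the aquaporin best known in the keratinocytes of skin and other stratified epithelia, and Aqp5 is best known on the apical side of secretory cells in salivary glands, airway glands and lung.

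The sequences that the results turn on are the first 30 of the 60 bases of the Aqp5 probe, of the Aqp3 probe and of the 3 Aqp9 probes, 5′ to 3′ as the scanner files list them. The sequence listed as AK050325 is a transcript record with no aquaporin name in the files. Its probe begins with the same letters as one Aqp9 probe, and the first 54 of 60 bases of both are identical.
Aqp5 A_51_P207601: aggagagagatagatggttcgtcgagtgcc
Aqp3 A_51_P245090: atctggagctatgacccttgactgggggct
Aqp9 A_52_P136092: aaactaaaagctagtggactctacctggtg
AK050325 A_52_P515677: aaactaaaagctagtggactctacctggtg
Aqp9 A_52_P80440: ggtgtcttttgcaatgtgcacctttggaag
Aqp9 A_51_P168133: tcttcactgctctggcaggatggggatttg

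All positions are on mouse build mm9, from the scanner files. The Aqp5 probe lies on the plus strand of chr15:99425131-99425189 and the Aqp3 probe on the minus strand of chr4:41039962-41040021. The Aqp9 probes lie on the minus strand of chromosome 9. A_52_P136092 covers chr9:70959173-70959232 and A_52_P80440 covers chr9:70980489-70980548. A_51_P168133 is listed at chr9:70960173-70970637, a span of 10465 bases for a probe of 60, so it joins parts of the transcript that lie apart in the genome. Exon and untranslated region boundaries were not used here. In the RefSeq gene order of GRCm38.p6, Aqp5 lies between Aqp2 and Aqp6, and Aqp7 lies directly before Aqp3.

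Values below are log2 ratios of esophagus (Cy5) over reference (Cy3) after background correction and loess normalization, where 0 means equal signal. The share of spots with Cy5 well above background was 67.3% to 77.2% in the wild type group and 71.7% to 76.0% in the knockout group. The wild type group shared 1 slide and scan and the knockout group another, so slide and genotype cannot be told apart. The target gene did not bear out the labels: Pax9 differed by 0.73 (SE 0.18, adjusted p = 0.071 in limma), with the higher mean under the label knockout (6.77 ± 0.05 against 6.04 ± 0.30, SD, n = 3 each). As the floxed exons are not named, group names below are only those of the labels, and every direction rests on them. The tissue label was borne out by squamous keratins, with Krt13 at 6.84 to 7.68 and Krt5 at 3.87 to 4.42 over the 6 arrays. The skeletal muscle genes Acta1 (3.26 to 6.24) and Ckm (3.71 to 6.66) were also high, so the RNA was not of epithelium alone. In such bulk RNA, fewer cells of a type and less RNA per cell cannot be told apart.

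Between the groups, 3 of 11 tested aquaporin probes passed the threshold of an adjusted p of 0.05, all of them lower on the arrays labelled knockout. They were the Aqp5 probe and 2 of the 3 Aqp9 probes, 1 of which was near background in the knockout group. Over all tested probes, 4.18% passed (1274 of 30479), 1.78% as lower and 2.4% as higher. At an unadjusted p under 0.05, 4 of 11 aquaporin probes and 7111 of all 30479 tested probes passed. The median difference was -0.16 over the aquaporin probes and -0.0028 over all tested probes. Groups did not overlap at 4 aquaporin probes, those of Aqp5 and Aqp9, all with the knockout label lower. Over all probes groups did not overlap at 30.5%, 14.9% with the knockout lower and 15.5% with it higher. Because the members were chosen with this contrast known, nothing is read from these counts.

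**Figure D1:**
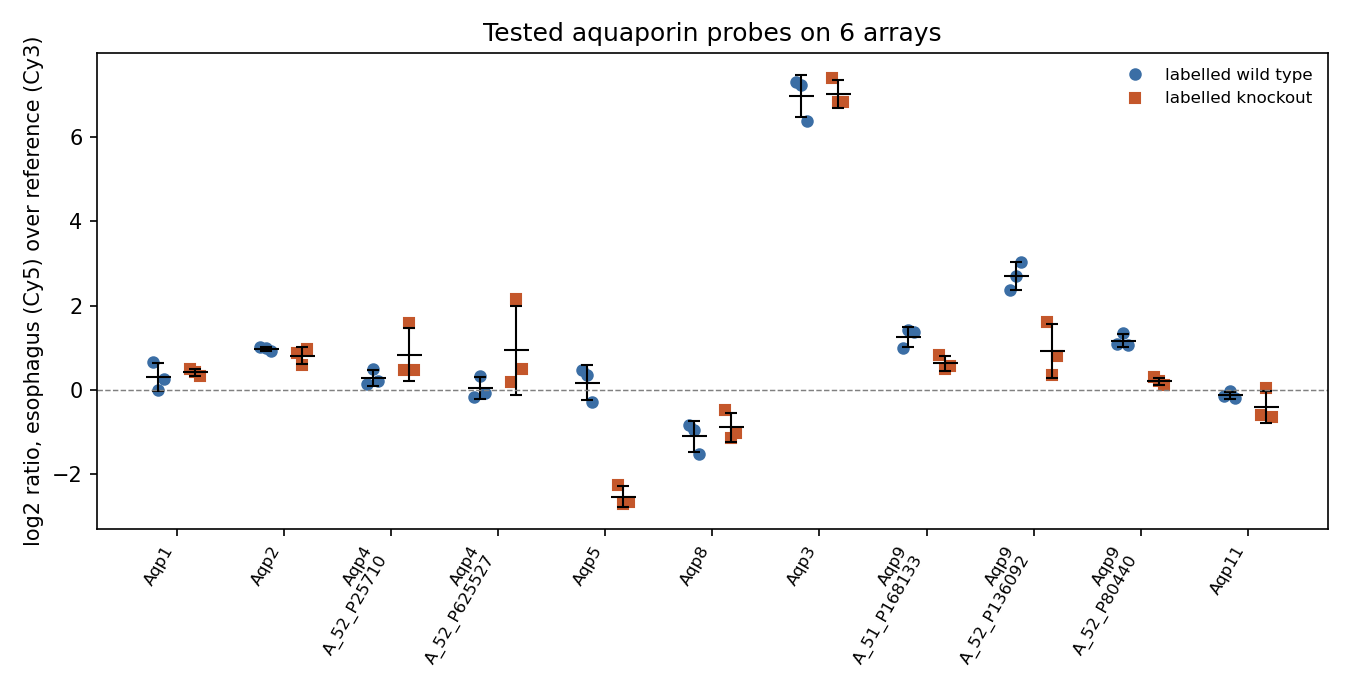
Log2 ratio of esophagus (Cy5) over reference (Cy3) for the 11 tested aquaporin probes, with 1 point per array, horizontal bars at group means and error bars of 1 SD (n = 3 arrays per group). Aqp3 sits near 7 in both groups, and Aqp5 lies between -0.29 and 0.46 on arrays labelled wild type and between -2.70 and -2.25 on arrays labelled knockout.

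Of the aquaporins, Aqp5 had the widest gap between the arrays labelled wild type and those labelled knockout. Its log2 ratio was 0.46, 0.35 and -0.29 on the 3 wild type arrays, replicates 1 to 3 in turn. On the arrays labelled knockout it was -2.25, -2.70 and -2.67. The groups did not overlap, and the gap between them was wider than the range within either. The means were 0.17 ± 0.41 and -2.54 ± 0.25 (SD, n = 3 each), a difference of -2.71 (SE 0.24), or 6.54-fold lower with the label knockout. It was the 37th lowest difference of 30479 probes.

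The Aqp5 difference lay in the sample channel. Background-subtracted Cy5 signals were 827, 861 and 1282 in the wild type group and 175, 164 and 142 in the knockout group, and all 6 were well above background. Cy3 signals ranged from 2708 to 3141 and from 2565 to 2941. With each channel scaled on its own, Cy5 differed by -2.59 and Cy3 by 0.12 on the log2 scale. Over 17 processing alternatives the Aqp5 difference lay between -3.42 and -2.46, and it missed the threshold in 1, without knockout replicate 3 (-2.64).

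**Figure D2:**
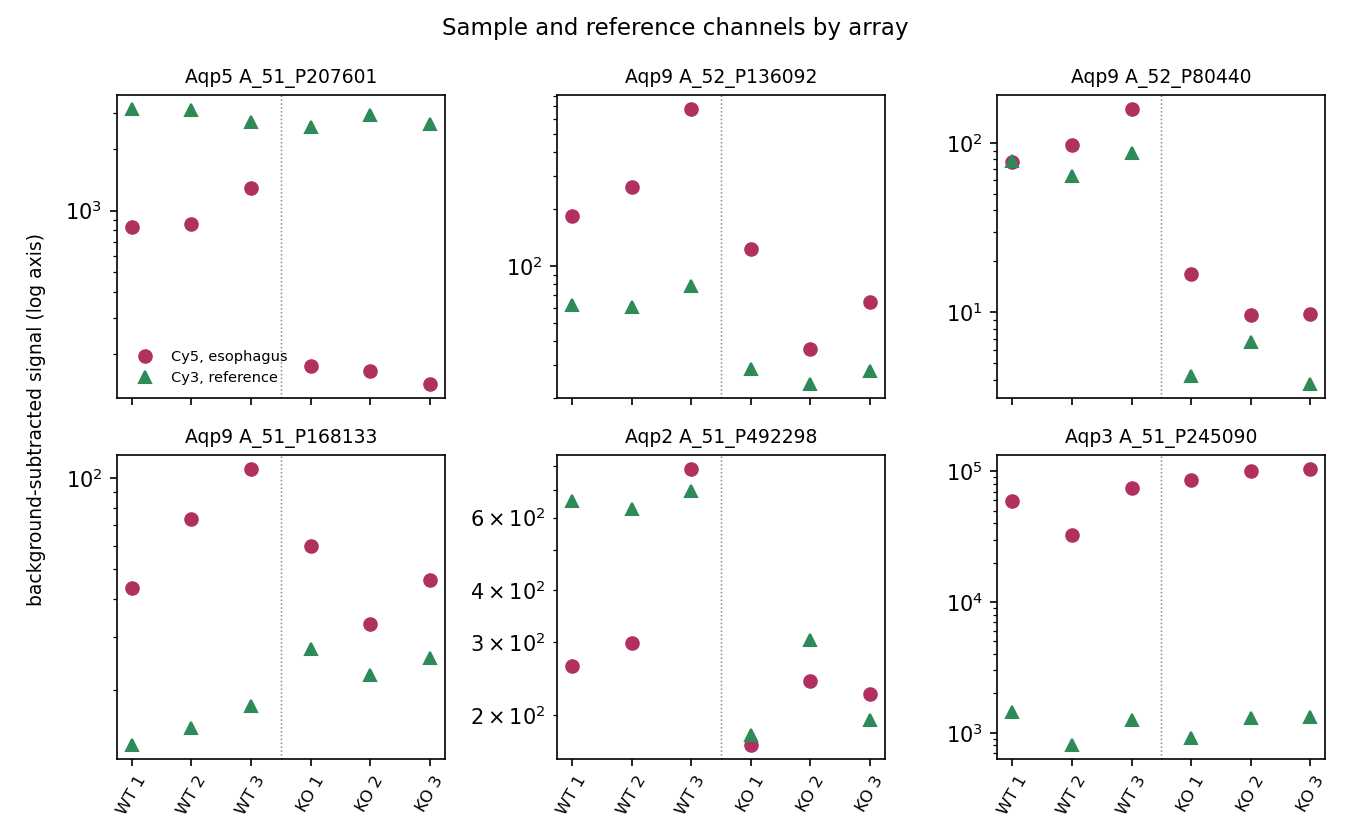
Background-subtracted signal of the sample (Cy5) and reference (Cy3) channels by array for 6 aquaporin probes, on log axes whose ranges differ between panels. For Aqp5 Cy3 stays between 2565 and 3141 while Cy5 is 827 to 1282 on the WT arrays and 142 to 175 on the KO arrays (labelled knockout), and for Aqp2 and Aqp9 A_52_P80440 both channels are lower on the arrays labelled knockout.

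Markers of tissues in which Aqp5 is abundant were set beside it. Of 7 airway epithelium genes, 5 were tested and 1 passed, beside 4.18% of all tested probes: Scgb3a2, a secretoglobin of airway secretory cells, fell by 1.85 (SE 0.22, adjusted p = 0.012 in limma). Scgb3a2 read 3.32, 3.68 and 3.49 in the wild type group and 2.00, 1.25 and 1.69 in the knockout group, so its groups did not overlap, as at 30.5% of all probes. With Cy5 alone its difference was -0.34 and missed the threshold, as it also did without wild type replicate 1 and without knockout replicate 3. With Cy3 alone Scgb3a2 differed by 1.505, so most of its difference in ratio lay in the reference channel. Scgb1a1, another secretoglobin, read 5.56, 5.76 and 5.21 against 5.72, 4.21 and 4.51, with overlapping groups. The other 3 tested airway genes had higher means in the knockout group and did not pass: Tekt1 by 0.55, Sftpc by 0.37 and Bpifb1 by 0.33. Each entered the tests through the knockout group alone, so nothing is read from their direction. Under median centring they differed by 0.05, -0.07 and -0.09. The list's median difference, 0.33, and its median ratios rest in part on these 3 genes. The median ratio was 0.23 to 0.40 in the wild type group and 0.58 to 1.25 in the knockout group. Summed Cy5 signals, here and below, are not scaled between arrays. That of the airway list was 8947 to 35435 in the wild type group and 3423 to 8670 in the knockout group. None of the listed airway genes was below background on every array.

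Salivary and seromucous gland genes were also set beside Aqp5. Of 9 listed, 5 were tested and none passed in limma, nor did any at an unadjusted p under 0.05. Lpo differed by -0.53, while Bpifa2, Car6, Muc5b and Amy1 had differences above 0, of 0.05 to 0.61. Bpifa2 was well above background on all 3 arrays labelled wild type and on none labelled knockout, so its direction is not read. With each channel scaled on its own, its Cy5 differed by -0.60 and its Cy3 by -0.66. The summed Cy5 signal of the list was 736 to 1359 in the wild type group and 1419 to 3908 in the knockout group. Smgc and Dcpp1, products of salivary secretory cells, were on no array well above background. Of 9 gastric epithelium genes, 6 were tested and 1 passed, beside 4.18% of all tested probes. Atp4b, a subunit of the gastric proton pump, rose by 0.81 (SE 0.17, adjusted p = 0.049 in limma), and missed the threshold in 11 of 17 alternatives, among them every fit with 1 array left out and median centring, where the difference was 0.00. Gkn1, made by gastric surface cells, was on no array well above background. The part of airway, gland or gastric cells in the Aqp5 difference was not tested.

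Aqp9, an aquaglyceroporin best known in liver and leukocytes, was read by 3 probes. At A_52_P136092 the log2 ratio was 2.36, 2.69 and 3.02 in the wild type group and 1.62, 0.36 and 0.80 in the knockout group. The groups did not overlap, and knockout replicate 1 lay nearest to the wild type arrays. The means were 2.69 ± 0.33 and 0.93 ± 0.64 (SD, n = 3 each), a difference of -1.76 (SE 0.33), or 3.40-fold lower. Signals were low: Cy5 was 183, 262 and 681 against 124, 36.3 and 64.7. The Cy3 signal was lower on the second slide too, at 60.5 to 77.9 against 23.6 to 28.3. With each channel scaled on its own, Cy5 differed by -1.92 and Cy3 by -0.16.

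The other Aqp9 probes were lower with the label knockout by less. A_52_P80440 read 1.09, 1.34 and 1.05 in the wild type group and 0.29, 0.20 and 0.11 in the knockout group, a difference of -0.96 (SE 0.15). Only 1 of 3 arrays labelled knockout had Cy5 well above background at this probe, which entered the tests through the wild type group alone. Its difference is therefore set mostly against background and no fold is given. Its Cy3 signal moved with the slide, from 63.4 to 87.2 down to 3.77 to 6.66. Scaled on its own, Cy3 differed by -0.63 and Cy5 by -1.60. In the deposited log ratio of the scanner files and in the series matrix values its sign was reversed, at 0.35. It also missed the threshold with background subtraction, under median centring and whenever 1 array other than wild type replicate 3 was left out. A_51_P168133 read 0.99, 1.42 and 1.38 against 0.83, 0.49 and 0.57, a difference of -0.63 (SE 0.18) that missed the threshold. It was -2.22 and past the threshold in the deposited log ratio.

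The 3 Aqp9 probes followed each other over the 6 arrays, with Pearson r between 0.91 and 0.96. These are descriptions over 6 arrays of 2 slides. The AK050325 probe, which shares 54 bases with A_52_P136092, correlated with it at 0.99 and differed by -1.44 (SE 0.33, adjusted p = 0.0598 in limma, and 0.0386 with the replicate block). Because of the shared bases, the 2 probes are not independent readings. The difference at A_52_P136092 lost the threshold in 9 of 18 alternatives, among them every fit that left out 1 array other than knockout replicate 1. Over all 18 it lay between -2.11 and -1.12. It was -1.33 under median centring and -1.26 in the deposited log ratio. A mean over the tested Aqp9 probes gave -1.12, past the threshold. That mean includes A_52_P80440, which entered the tests through the wild type group alone, so it adds no separate call for Aqp9.

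Neutrophil genes were set beside Aqp9, since leukocytes are a known source of its transcript. Of 8 listed, 7 were on the array, 3 were tested and none passed in limma (1 at an unadjusted p under 0.05). Cxcr2, a chemokine receptor of neutrophils, read 5.37, 4.15 and 4.08 in the wild type group and 3.22, 3.19 and 3.52 in the knockout group. These groups did not overlap, as at 30.5% of all probes. The difference for Cxcr2 was -1.23 (SE 0.35, adjusted p = 0.093 in limma), and -0.32 in the deposited log ratio. The other 2 tested neutrophil genes had differences above 0, of 0.43 for Mpo and 0.10 for Ltf, and the list's median difference was 0.10. Elane and Ngp, neutrophil granule genes, were not well above background on any array, and the list's summed Cy5 signal was 676 to 1391 against 606 to 824. The part of neutrophils in the Aqp9 difference was not tested.

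Aqp3 was the aquaporin with the highest ratio over the reference. It read 7.29, 7.23 and 6.38 in the wild type group and 7.39, 6.83 and 6.83 in the knockout group. The groups overlapped, and wild type replicate 3 was the lowest of all 6. The means were 6.97 ± 0.51 and 7.02 ± 0.33 (SD, n = 3 each), a difference of 0.05 (SE 0.29). Its sign depended on the processing: 5 of 17 alternatives gave a negative value, down to -0.31, and the highest was 0.43.

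The contrast of esophagus over reference averages both groups, and was not the one the members were proposed on. In it 9 of 11 aquaporin probes passed the threshold, 7 as higher and 2 as lower in esophagus. Among the 7 were Aqp9 A_52_P80440 and Aqp4 A_52_P25710. Each entered the tests only through the group where it was higher, so neither is read as a call. Of all tested probes 75.5% passed, 42% as higher and 33.5% as lower. The median ratio was 0.56 over the aquaporin probes and 0.11 over all tested probes. The spread of the reference is not in this test, and without a dye swap a dye bias of a probe cannot be told apart from its ratio. Median centring in place of loess moved the median ratio of all probes to -0.35.

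Aqp3 stood at 6.99 (SE 0.14, adjusted p = 4.5e-08 in limma), or 127-fold over the reference. It was the 66th highest ratio of 30479 probes, which ranks ratios and not transcript levels. Its Cy5 signals were 59202, 32520 and 74795 in the wild type group and 85850, 100540 and 103927 in the knockout group, with no saturated spot. Cy3 lay between 809 and 1432. Over 16 alternatives the ratio lay between 6.34 and 7.14, and all kept it past the threshold.

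All 3 Aqp9 probes were also above the reference. A_52_P136092 stood at 1.81 (SE 0.17, adjusted p = 4.6e-05), A_51_P168133 at 0.95 (SE 0.09, adjusted p = 5.4e-05) and A_52_P80440 at 0.68 (SE 0.07, adjusted p = 1.1e-04), in limma. Aqp5 was below it, at -1.18 (SE 0.12, adjusted p = 8.2e-05 in limma), a mean of groups that lay at 0.17 and -2.54. These 4 ratios stayed past the threshold in every alternative that could be run. That of A_52_P80440 is not read as a call, since this probe entered the tests through the wild type group alone. Its 0.68 is a mean of groups at 1.16 (wild type) and 0.20 (knockout). Cy5 at this probe was well above background on only 1 array labelled knockout. Cy3 was so on only 3 arrays of both groups together, so part of the ratio is set against background.

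Aqp7, the glycerol channel of adipocytes, could not be compared. Its 2 probes overlap by position, within bases 40981221 to 40981302 of chromosome 4, and each was well above background on 1 or 2 arrays of a group. Cy5 signals lay between -3.14 and 35.2, and the probes did not follow each other over the 6 arrays (r = -0.21). Of 7 adipocyte genes 4 were tested, none passed in limma (1 at an unadjusted p under 0.05), and Lep, the leptin gene, was not well above background on any array.

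**Figure D3:**
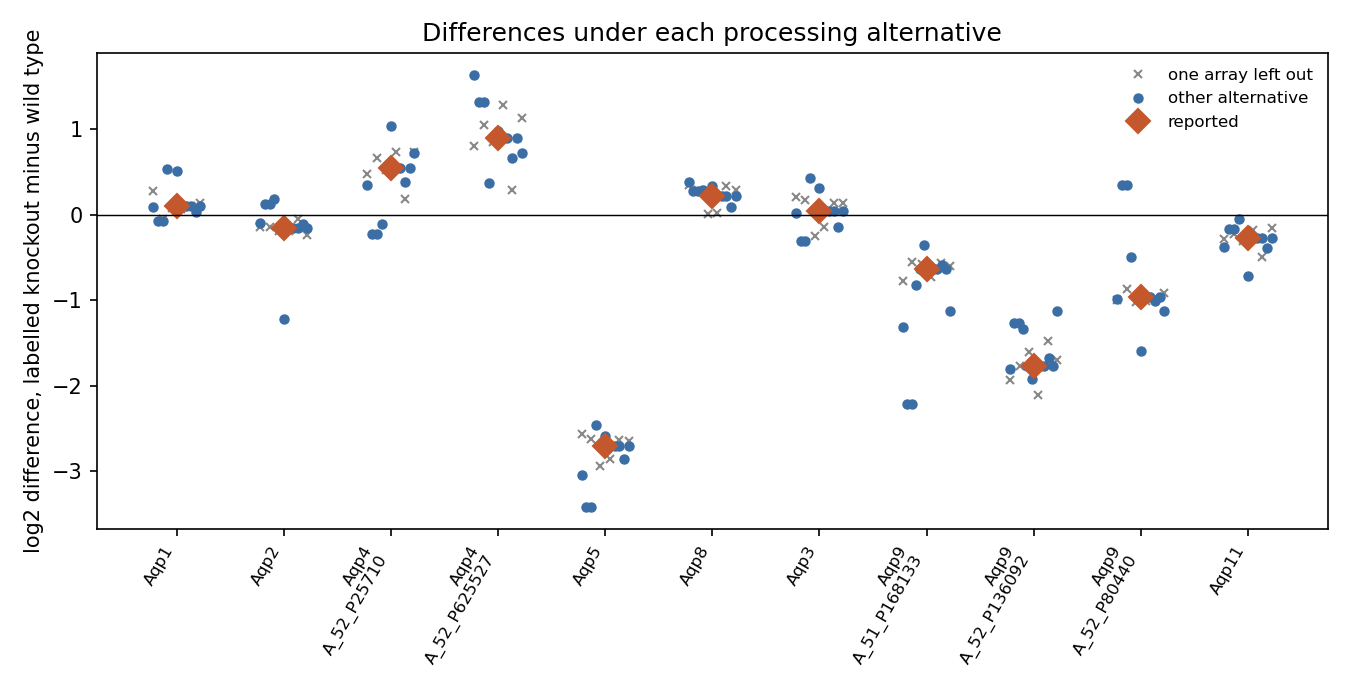
Log2 difference, arrays labelled knockout minus arrays labelled wild type, for the 11 tested aquaporin probes as reported (diamonds), with 1 array left out (crosses) and under the other alternatives (circles). Aqp5 stays between -3.42 and -2.46, while Aqp9 A_52_P80440 crosses 0 to 0.35 and Aqp1, Aqp2, Aqp3 and Aqp4 A_52_P25710 have values on both sides of 0.

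Aqp1, the water channel of red cells and of capillary endothelium, read 0.67, 0.00 and 0.26 in the wild type group and 0.48, 0.42 and 0.34 in the knockout group. The groups overlapped, and the difference was 0.10 (SE 0.20). Against the reference it stood at 0.36 (SE 0.10, adjusted p = 0.011 in limma). Median centring turned that value to -0.22, and in the deposited log ratio it was 0.27 and missed the threshold (adjusted p = 0.054). The background-subtracted Cy5 signal of Aqp1 was below its Cy3 signal on every array, so a ratio above 0 came only after normalization. Neither the 4 tested erythroid genes nor the 7 endothelial genes had a member past the threshold between the groups in limma. An unadjusted p under 0.05 held for 3 of the erythroid and 2 of the endothelial genes, beside 7111 of all 30479 tested probes. The erythroid list read higher on the second slide, with a median ratio over its tested genes of 1.60 to 2.32 against 2.84 to 4.10.

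Aqp2, the vasopressin-regulated channel of the kidney collecting duct, read 1.01, 0.99 and 0.91 in the wild type group and 0.88, 0.59 and 0.97 in the knockout group. The groups overlapped, with a difference of -0.16 (SE 0.15). Its probe lies on the plus strand of chr15:99412578-99413554, a span of 977 bases. Both channels moved with the slide: Cy3 was 658, 630 and 698 against 179, 303 and 194, and with each channel scaled on its own Cy3 differed by -1.06 and Cy5 by -1.22. Against the reference Aqp2 stood at 0.89 (SE 0.08, adjusted p = 3.3e-05 in limma). That was 0.14 (adjusted p = 0.26) under median centring, and its background-subtracted Cy5 signal was below its Cy3 signal on 4 of 6 arrays, whereas the ratio after loess was positive on all 6.

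Aqp4, the water channel that the dystrophin complex anchors at the membrane of astrocytes and fast skeletal muscle fibres, was read by 3 probes on chromosome 18. A_52_P25710 read 0.13, 0.50 and 0.22 in the wild type group and 0.47, 1.58 and 0.47 in the knockout group. A_52_P625527 read -0.16, 0.34 and -0.06 against 0.18, 2.15 and 0.49. A_51_P419319, not tested, read -0.11, 1.96 and 0.50 against 0.29, 3.99 and 0.88. Replicate 2 was the highest of its group at each probe in both groups, and the groups overlapped at all 3.

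The range of Aqp4 over the 3 arrays labelled knockout exceeded the difference between groups at both tested probes. That difference was 0.55 (SE 0.32) at A_52_P25710 and 0.90 (SE 0.49) at A_52_P625527, and neither passed. The wild type group was well above background on 2 and 1 of 3 arrays at these probes. Without knockout replicate 2 the differences were 0.18 and 0.30. The difference turned to -0.22 at A_52_P25710 in the deposited log ratio and to -0.11 under median centring. Against the reference A_52_P25710 stood at 0.56 (SE 0.16, adjusted p = 0.013 in limma). A_52_P625527 stood at 0.49 (SE 0.24, adjusted p = 0.105 in limma), with an adjusted p of 0.019 with the replicate block. Neither ratio is read as a call, since both probes entered the tests through the knockout group alone. At A_52_P25710 Cy3 was well above background on only 3 arrays of both groups together. The 3 probes followed each other with r of 0.94 to 0.99 over 6 arrays.

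Skeletal muscle genes varied over the arrays beside Aqp4. The median log2 ratio of the 9 listed genes was 3.24, 5.93 and 3.26 in the wild type group and 5.05, 6.23 and 4.90 in the knockout group, so replicate 2 was again the highest of each group. That order was not particular to muscle genes: the median ratio of the glial genes was 0.13, 0.33 and 0.19 against 0.45, 2.35 and 0.39. The dystrophin complex, airway and gastric lists also had their highest median on replicate 2 of each group. Pvalb, parvalbumin of fast fibres, read 0.22, 3.48 and 0.56 against 1.14, 5.90 and 2.96. The list's summed Cy5 signal was 18431 to 206656 against 101015 to 1166640. Of the 9 muscle genes 1 passed, Myh2, beside 4.18% of all tested probes. Myh2 rose by 1.63 (SE 0.32, adjusted p = 0.0402 in limma). It missed the threshold in 8 of 17 alternatives, among them every fit that left out 1 array other than wild type replicate 3. Of 5 glial genes none passed in limma (1 at an unadjusted p under 0.05). The part of muscle or glia in the Aqp4 values was not tested.

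**Figure D4:**
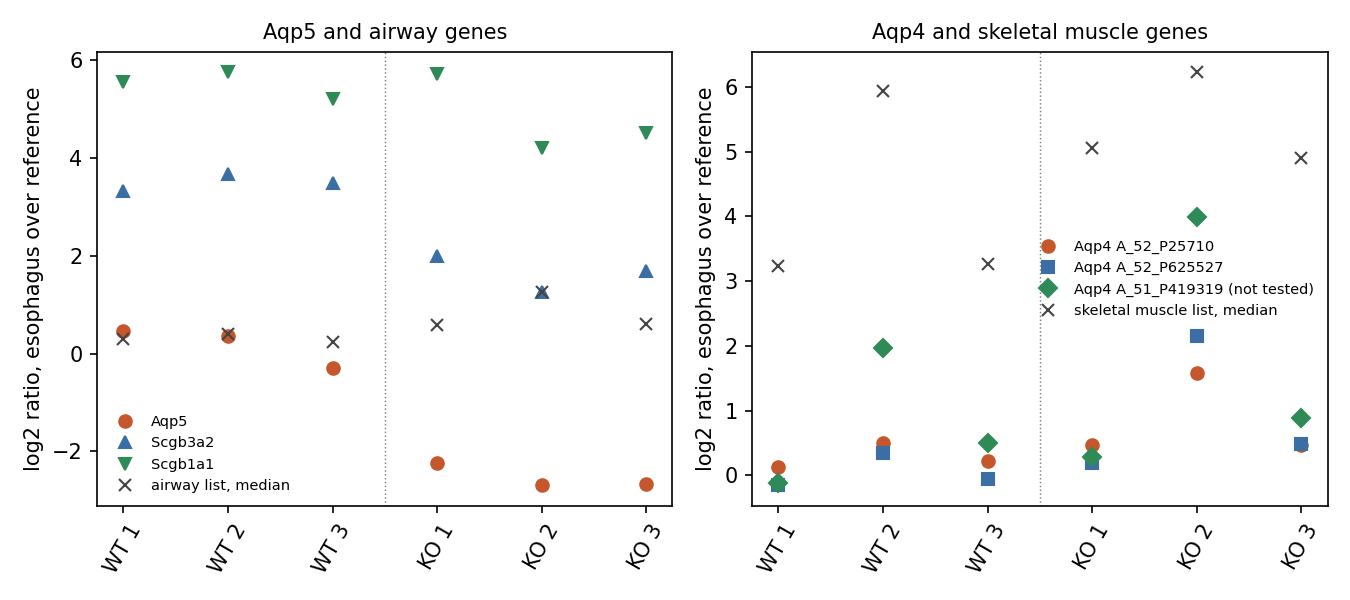
Log2 ratio of esophagus over reference by array for Aqp5 with Scgb3a2, Scgb1a1 and the median of the tested airway genes (left), and for the 3 Aqp4 probes with the median of the skeletal muscle genes (right); 1 symbol is 1 array. Aqp5 and Scgb3a2 are lower on all 3 arrays labelled knockout, and Aqp4 and the muscle median are highest on replicate 2 of each group. The airway median is higher on all 3 arrays labelled knockout (0.58 to 1.25 against 0.23 to 0.40), and the groups of Scgb1a1 overlap. That median rests in part on genes that entered the tests through the knockout group alone. With Cy5 alone Scgb3a2 differed by -0.34 and Aqp5 by -2.59. With Cy3 alone Scgb3a2 differed by 1.505 and Aqp5 by 0.12.

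Aqp8, a channel of digestive glands and colon that also passes ammonia and hydrogen peroxide, read -0.84, -0.96 and -1.52 in the wild type group and -0.49, -1.14 and -1.03 in the knockout group. The groups overlapped and the difference was 0.22 (SE 0.25). It was 0.011 without wild type replicate 3 and 0.020 without knockout replicate 1. Its ratio against the reference was -0.995 (SE 0.13, adjusted p = 2.5e-04 in limma), or 1.99-fold lower in esophagus. Under median centring that ratio was -1.77. The probe lies on the plus strand of chr7:130611436-130611495.

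Aqp11 read -0.15, -0.04 and -0.19 in the wild type group and -0.60, 0.03 and -0.64 in the knockout group. Knockout replicate 2 lay above all wild type arrays and the others below them, so the groups overlapped, with a difference of -0.28 (SE 0.21). Cy3 was 805 to 869 on the first slide and 439 to 539 on the second. Against the reference its value was -0.27 (SE 0.10, adjusted p = 0.051 in limma), with an adjusted p of 0.0302 with the replicate block, and 7 of 16 alternatives put it past the threshold. Over these 16 the ratio lay between -1.04, under median centring, and -0.21. The probe lies on the minus strand of chr7:104874989-104875048.

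Lists of genes in the pathways around the aquaporins were read against the 4.18% of all tested probes that passed between the groups. Counts at an unadjusted p under 0.05, here and above, stand beside 7111 of all 30479 tested probes. In epithelial ion transport, which sets up the gradients that water follows, 22 of 24 listed genes were tested and 2 fell in limma. Car2, a cytosolic carbonic anhydrase, read 2.87, 3.30 and 2.61 in the wild type group and 0.60, -0.27 and -0.88 in the knockout group, and fell by 3.11 (SE 0.38, adjusted p = 0.013). Atp12a, the non-gastric proton-potassium pump, read 4.77, 3.36 and 4.13 against 1.73, 0.91 and 1.27, and fell by 2.78 (SE 0.37, adjusted p = 0.018). At both genes every array labelled knockout lay below every array labelled wild type, as at 14.9% of all probes. Both missed the threshold without wild type replicate 1 and without knockout replicate 3, and Atp12a fell by 1.87 with Cy5 alone, against a Cy3 difference of 0.91. Over the tested genes of the list the differences ran from -3.11 to 2.47, with a median of -0.05.

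In glycerol and triglyceride handling, 18 of 19 genes were tested and 1 passed. Gpam, the mitochondrial enzyme that starts glycerolipid synthesis from glycerol phosphate, read 1.15, 1.47 and 1.66 in the wild type group and 0.26, 0.37 and -0.07 in the knockout group. Gpam fell by 1.23 (SE 0.20, adjusted p = 0.025 in limma) and missed the threshold in 7 of 17 alternatives, among them the deposited log ratio (-1.18) and the fits without wild type replicates 1 or 2 or knockout replicates 1 or 3. The median difference of the list was -0.15.

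In osmotic stress and cell volume control none of 18 genes passed in limma, and 5 had an unadjusted p under 0.05. Slc6a12, a betaine transporter, differed by -0.68 (SE 0.20, adjusted p = 0.103). In the vasopressin and cAMP control of aquaporins none of 12 tested genes passed in limma, adjusted or unadjusted (0 of 12 at an unadjusted p under 0.05). The nearest were Akap12, a kinase anchor protein, at 0.64 (SE 0.33, adjusted p = 0.29), and Avpr1a, a vasopressin receptor, at 0.35 (SE 0.19, adjusted p = 0.32), and Avpr2, the receptor that controls Aqp2 in kidney, was not well above background on any array. In the dystrophin complex 1 of 12 genes passed: Dtnb, beta-dystrobrevin, rose by 0.77 (SE 0.15, adjusted p = 0.039 in limma) and missed the threshold in 11 of 17 alternatives, among them every fit with 1 array left out. None of the 8 squamous epithelial genes passed in limma, and their median difference was -0.21. The 7 smooth muscle genes and the 2 tested thyroid genes gave no call in limma either. At an unadjusted p under 0.05 the counts were 0 squamous, 0 smooth muscle and 1 thyroid gene.

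The genes whose log2 ratios were most like each aquaporin over the 6 arrays were found by Pearson r among 21044 genes, as a description over points that share 2 slides. For Aqp5 they were Tctn1 (r = 0.9996), the transcript listed as ENSMUST00000103374 and Parg, and for the Aqp9 probe A_52_P136092 they were Sirt7 (r = 0.998), 1700018B24Rik and Mbd4. For Aqp3 they were Lyg1, Pax2 and Ss18l1. For Aqp4 they were Arpp21, Acad12 and Phkg1, for Aqp1 Lmna, Ube2g2 and Olfr961, and for Aqp2 Vamp3, Rrbp1 and Lmbrd2. For Aqp8 they were Syce1, Ccni and Nfkb2, and for Aqp11 Fam222b, Tspan17 and Ank3. With 6 points such values are common: 665 genes lay above 0.95 with Aqp5 and 9 with Aqp1.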

How the data were processed

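Esophagus RNA (Cy5) and reference RNA (Cy3) were read on 6 arrays, 3 per group. The deposited scanner files hold linear intensity per spot and background flags for 45018 spots, of design 014868. Their program was Agilent Feature Extraction, version 10.7.3.1 per the file headers but 9.1 per the submitters' processing notes. The log10 ratio (Cy5 to Cy3) deposited in the same files already holds that program's background and dye corrections. The deposited series matrix holds log2 values, which correlated at -0.993 to -0.996 with the scanner ratio (medians -0.02 to 0.02), so its sign was turned. No source used here gives its centring.

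The intensity columns were corrected by normexp (offset 50) and by loess within arrays, 1639 control spots were left out, outlier spots (55 to 164 per array) were set to missing and spots of a probe averaged. The offset draws ratios of dim probes toward 0. Differences and ratios over reference came from 1 two-sided limma fit (lmFit with eBayes, 1 mean per group; limma 3.58.1, R 4.3.3), adjusted by Benjamini-Hochberg over all tested probes, threshold 0.05. An exact permutation test of 3 against 3 cannot go below p = 0.1. The number of arrays limits the precision, and the labels call the samples biological replicates without naming animals; p-values cover only the spread of these samples, which may be technical. Names were matched to RefSeq genes of GRCm38.p6: 26918 probes by accession, 5082 by symbol, and 9174 kept the name in the files. A gene with several tested probes is represented in lists and correlations by its brightest.

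Same-numbered arrays deviated together (r = 0.167, 0.509 and 0.343; other pairs -0.487 to 0.163), so by the rule set for this the numbers pair the arrays, but what they stand for is not in the labels, and they also follow the position on the slide. The members and gene lists were chosen with earlier results of these data known. Named are all probes of the 9 aquaporin genes, Pax9, list members past the threshold or, where none was, the 2 with the smallest p, the 3 genes most correlated with each aquaporin, and cell type markers; AK050325 and the markers shown by array were picked after their values were seen. One gene that this rule takes is not reported here. Alternatives covered background correction, the deposited ratios, the filter on dim probes, normalization, Cy5 alone, a variance trend, array weights, a replicate block, probe averaging and leaving out each array.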

Additional observations from a re-analysis of the deposited data

How the results depend on the processing

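Of 30479 probes, 1274 passed between the groups as reported. The count was 727 with the deposited log ratio, 714 with the series matrix values, 139 under median centring, 8899 with Cy5 alone, 699 with probes above background on all 6 arrays, 3301 with array weights and 2254 with the replicate block. Leaving out 1 array gave 38 to 1112, with 108 and 207 without wild type replicates 1 and 2, and 322, 835 and 38 without knockout replicates 1, 2 and 3. The 3 aquaporin probes past the threshold became 1 under median centring, 6 with Cy5 alone and 0 to 2 with 1 array left out: 1 each without wild type replicates 1 and 2 and knockout replicate 2, and 0 without knockout replicate 3. With the replicate block they stayed 3, and the block changed no call of an aquaporin difference. Of 11 probes, 9 passed over the reference, among them Aqp9 A_52_P80440 and Aqp4 A_52_P25710, whose ratios are not read as calls. The count was 11 with the replicate block, and 9 to 10 with 1 array left out. With the filter on all 6 arrays 7 passed of the 8 aquaporin probes then tested. Aquantile leaves ratios as they are by construction. Differences that turned sign in the deposited log ratio, and equally in the matrix values, were those of Aqp1 (-0.071), Aqp2 (0.13), Aqp3 (-0.31), Aqp4 A_52_P25710 (-0.22) and Aqp9 A_52_P80440 (0.35). Median centring turned Aqp2 (0.19), Aqp4 A_52_P25710 (-0.11) and the Aqp1 ratio over reference (-0.22). Array weights turned Aqp3 (-0.14), and so did leaving out wild type replicate 3 (-0.25) or knockout replicate 1 (-0.14), in a range of -0.25 to 0.21 with 1 array left out. Leaving out wild type replicate 2 turned Aqp1 (-0.050), in a range of -0.050 to 0.28. Why these values moved was not tested. Signal over background limits Aqp7, Aqp4 and Aqp9, and 3 arrays per group limit all differences.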

Other observations

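Family genes outside the 9 were also on the array. Aqp12, a pancreatic aquaporin, was well above background on all 3 arrays labelled wild type and on none labelled knockout, with log2 ratios of 0.60, 0.59 and 0.40 against 0.02, 0.10 and 0.14. With the knockout arrays at background no fold is given. Its Cy3 signal moved with the slide as well, from 15.8 to 17.1 down to 3.48 to 5.64. Aqp6, an intracellular channel of kidney cells and the neighbour of Aqp5, was above background on all 3 arrays labelled knockout and on none labelled wild type, and no fold is given for it either. Cy3 at Aqp6 was 5.97 to 10.03 against 28.9 to 45.9. Mip, the lens aquaporin, was above background on 1 of 6 arrays and was not tested. At each of these 3 probes the reference, which is 1 RNA on all arrays, differed between the slides in the direction of the sample.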
